A study of Mus musculus with 6 samples.

Results

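The genes described here are 44 genes of the machinery that copies DNA and of the enzymes that supply it with deoxynucleotides, followed in mouse skin after imiquimod and in control skin. They were chosen by name from a fixed list, and each name was found once among the 57010 genes of the deposited table. All 44 were tested, out of 15323 genes tested in all. The imiquimod group (MOD, 3 libraries, source label "experiment type") came from mice given 62.5 mg of imiquimod (IMQ), an agonist of Toll-like receptor 7 that causes a psoriasis-like inflammation, on shaved dorsal skin for 6 days in a row. The control group (CON, 3 libraries, source label "wild type", treatment "Control") received no imiquimod; the sources used here do not say whether its skin was shaved or given a vehicle, and they name no strain, sex or age. At the end of the experiment the mice were given atropine and zoledronic acid, by the design text, which names no difference between the groups in this. The plant polysaccharide of the study's title was not analysed here.

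Before S phase, the origin recognition complex, Cdc6 and Cdt1 load the ring-shaped Mcm2 to Mcm7 helicase onto DNA. Kinases then recruit Cdc45 and GINS, the helicase unwinds the strands, and polymerases copy them on the sliding clamp PCNA while ribonucleotide reductase, thymidylate synthase and thymidine kinase keep deoxynucleotides available. E2F factors raise most of these genes together as cells enter S phase, so their transcripts follow the proliferating compartment of a tissue, which in skin includes basal epidermal cells and the matrix cells of growing hair follicles. Psoriasis is known for increased keratinocyte proliferation.

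The replication genes as a group were lower in MOD. Of the 44, 42 fell and 0 rose (limma on log2(TPM + 1), two-sided, Benjamini-Hochberg adjusted over all tested genes, threshold 0.05), where 36.1% of all tested genes fell and 12.5% rose. In these 42 genes every MOD library lay below every CON library, which held for 44% of all tested genes; every MOD library lay above every CON library for 0 of the 44 and for 15.5% of all. The exceptions were Mcm3 and E2f1. The median log2 difference, MOD minus CON, was -1.23 over the 44 genes and -0.31 over all tested genes, and single members lay between -2.23 and -0.18. TPM, a transcript count corrected for length and scaled to a common library total, gives a gene's share of its library. The 44 genes together made up 0.0627, 0.0678 and 0.0762% of MOD libraries 1 to 3, against 0.136, 0.176 and 0.179% of CON libraries 1 to 3. In bulk tissue, fewer cells of a type and less RNA per cell cannot be told apart.

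The scaling and a split of the controls bear on these values. The balance of the whole table depended on the scaling: 1914 genes rose and 5538 fell in TPM as deposited, against 3097 and 2868 after median-of-ratios scaling, under which the median of all tested genes was 0.00. After that scaling 36 of the 44 genes fell and 0 rose, where 18.7% of tested genes fell and 20.2% rose, and the median of the 44 was -0.89. The controls also differed among themselves. H2-Ea, an MHC class II gene, was at 194 and 162 TPM in CON 1 and CON 3 and at 0 in CON 2 and in each MOD library. Rps18, a ribosomal protein gene, divided the libraries along the same line. CON 1 and CON 3 held only 64.6 and 76.1 TPM of it, whereas CON 2 held 3622 TPM. Each MOD library held between 1954 and 2247 TPM. A model with a term for this split, called the H2-Ea term from here on, sets MOD against CON 2, so that its control side rests on 1 library. It called 31 of the 44 genes lower and 0 higher, where 17.9% of tested genes fell and 4.35% rose; the median was -1.25. CON 2 lay above each MOD library for 44 of 44 genes. The share of all tested genes for which this held was not computed. It cannot be below the 44% with every MOD library below every CON library, so the count is not read as particular to the 44.

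Other cell types moved in the same libraries, and their part in the result was not tested. Hair follicle markers (13 found of 14 listed, 13 lower) summed to 6.38 to 22.3 TPM in MOD and 3035 to 13174 TPM in CON. Krt31 was at 0 in MOD 1 and MOD 2. The list mixes genes of the hair matrix, the shaft and the inner root sheath. In CON 1 the inner root sheath keratins Krt71, Krt25 and Krt27 alone stood at 3905, 3771 and 2272 TPM. Skeletal muscle markers (6 of 7 higher) summed to 20185 to 31155 TPM in MOD and 3085 to 10689 TPM in CON, and the share of mitochondrially encoded transcripts was 10.7 to 13.2% in MOD, against 6.58 to 7.32% in CON. Among the controls, the hair marker sum was largest in CON 1, and the muscle marker sum in CON 3. Single hair markers did not share that order. Krt35, Hoxc13, Lef1 and Shh were highest in CON 3, and the other hair markers found were highest in CON 1. The replication genes made up the smallest share in CON 1 and the largest in CON 3. Whether these orders bear on the fall of the replication genes was not tested. Basal keratinocyte markers, which place the tissue as skin, summed to 4919 to 5197 TPM in MOD and 3274 to 4969 TPM in CON (1 of 8 higher, 3 lower). Krt14 (3038 TPM on average in MOD, 1554 in CON) and Krt5 (1643 and 1582) made up most of that sum. Krt14 was the higher marker. Krt15, Col17a1 and Trp63 were the lower ones, with Trp63 at 29.4 TPM on average in MOD and 85.9 in CON. The basal sum is thus not read as an amount of basal cell RNA. Macrophage markers (6 of 6 higher) summed to 1095 to 1460 TPM in MOD and 152 to 549 TPM in CON. Neutrophil markers (5 of 5 tested higher) summed to 2420 to 7562 TPM in MOD and 25.3 to 75.8 TPM in CON, with Retnlg at 0 in every CON library. In MOD 1, Csf3r, Cxcr2 and Retnlg were at 14.6, 5.9 and 59.6 TPM. Most of the neutrophil sum thus came from other listed markers, among them S100a8 and S100a9, and it is not read as an amount of neutrophil RNA. Endothelial markers (2 of 3 higher) summed to 139 to 177 TPM in MOD and 53.0 to 63.2 TPM in CON. T cell markers (1 of 6 higher, 1 lower) summed to 31.0 to 51.2 TPM in MOD and 23.8 to 32 TPM in CON. Under the H2-Ea term 2 of the 6 macrophage markers and 3 of the 7 skeletal muscle markers were higher. B cell markers (1 of 1 tested higher) summed to at most 7.94 TPM in MOD and 0.84 TPM in CON. Melanocyte markers (4 of 4 lower, 0 with the H2-Ea term) summed to 30.89 to 175.32 TPM in MOD and 410 to 809 TPM in CON, and 0 of 7 suprabasal keratinocyte, 1 of 6 fibroblast (higher) and 0 of 3 adipocyte markers were called.

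**Figure D1:**
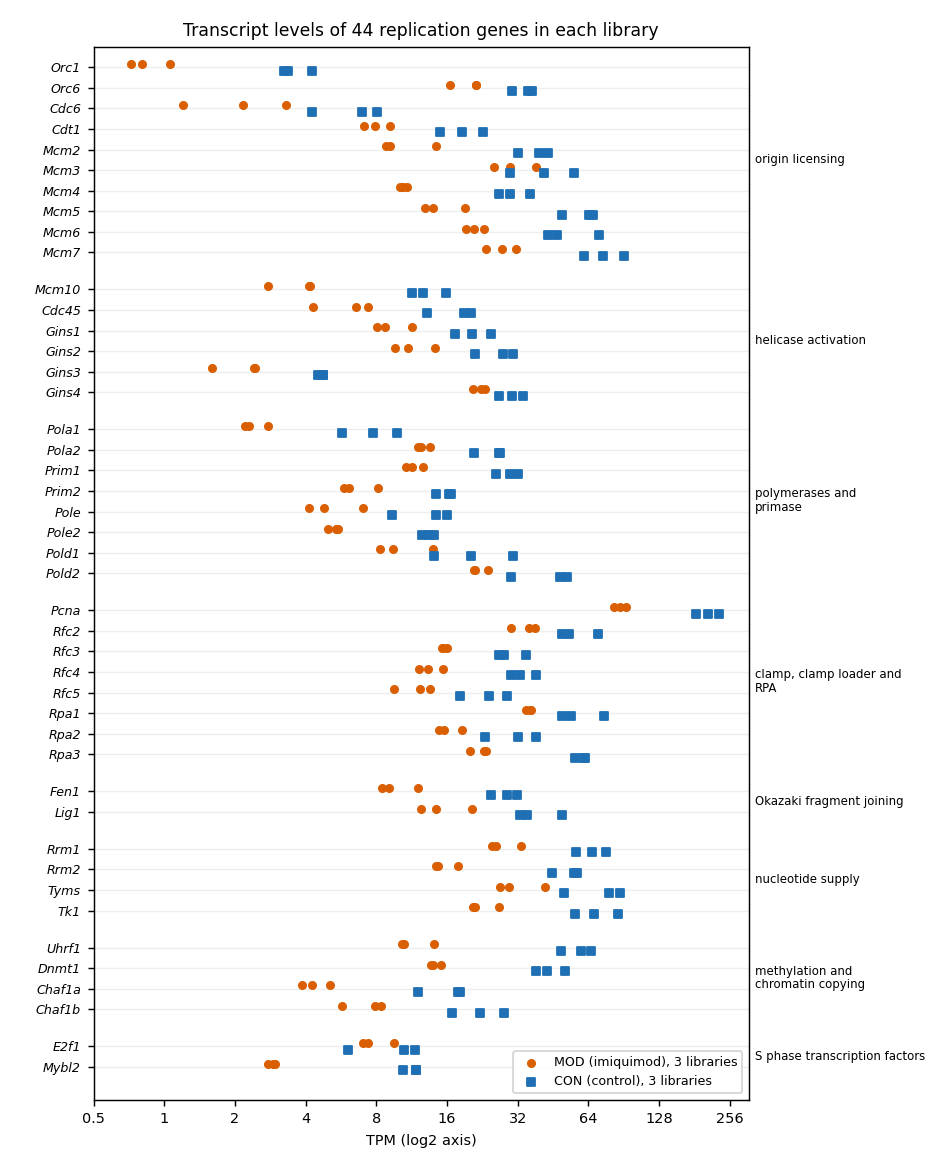
TPM of each of the 44 replication genes in the 3 MOD libraries (circles) and the 3 CON libraries (squares) on a log2 axis, grouped by role. The MOD circles lie to the left of all CON squares for 42 of the 44 genes; the groups overlap for Mcm3 and E2f1.

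Among the 10 genes of origin licensing, 9 fell. Orc1, an ATP-binding subunit of the origin recognition complex that cells renew in each cycle, was low, at 0.80, 1.06 and 0.72 TPM in MOD 1 to 3, against 3.25, 3.38 and 4.27 TPM in CON 1 to 3 (log2 difference -1.31, SE 0.17, limma adjusted p = 0.0023). Orc6, a further subunit, averaged 19.7 ± 2.73 TPM in MOD and 34.2 ± 3.38 TPM in CON (SD, n = 3 each; limma adjusted p = 0.0075). The loaders Cdc6 and Cdt1 fell by 1.22 and 1.12 on the log2 scale. Cdc6 stood at 1.20, 2.16 and 3.31 TPM in MOD and 4.27, 6.92 and 8.05 TPM in CON; leaving out MOD 1 (adjusted p = 0.0568) or MOD 2 (0.0505), testing with no filter on low values (0.0556), or adding the H2-Ea term (0.079, with a difference of -1.35) ended its call. The log2(TPM + 1) scale understates the change of such low genes: the MOD mean of Orc1 was 0.237 of its CON mean, close to the 0.254 of the more abundant Mcm5 described next.

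The Mcm2 to Mcm7 helicase is built from 1 copy of each subunit, but the transcripts of its subunits did not differ to the same degree. Mcm5 was at 12.85, 13.90 and 19.07 TPM in MOD, against 49.34, 66.92 and 64.19 TPM in CON (log2 difference -1.92, SE 0.19, limma adjusted p = 0.0013). Mcm2 was at 8.78, 9.11 and 14.35 TPM in MOD, against 32.09, 43.11 and 39.49 TPM in CON (log2 difference -1.76, SE 0.22, limma adjusted p = 0.0020). For both genes MOD 3, the highest MOD library, stayed well below CON 1, the lowest control. Mcm4, Mcm7 and Mcm6 fell by 1.47, 1.42 and 1.28. Mcm3 was at 29.62, 25.34 and 38.35 TPM in MOD, against 29.80, 55.34 and 41.57 TPM in CON (log2 difference -0.41, SE 0.25, limma adjusted p = 0.22). The highest MOD library, MOD 3, lay above CON 1, the lowest control, so the Mcm3 groups overlapped, while all 3 MOD libraries lay below CON 2 and CON 3. The difference was -0.83 under the H2-Ea term (adjusted p = 0.087) and -0.06 after median-of-ratios scaling (adjusted p = 0.85), and Mcm3 was called under none of the 16 alternatives. A p of this size does not show that the level was equal.

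These differences can be read within a library, where a ratio does not depend on how the library was scaled. Of the summed TPM of Mcm2 to Mcm7, Mcm3 made up 26.7 ± 2.66% in MOD and 13.8 ± 1.90% in CON, and Mcm5 made up 13.1 ± 0.768% in MOD and 20.1 ± 0.666% in CON (SD, n = 3 each). The ratio of Mcm3 to Mcm5 was 2.31, 1.82 and 2.01 in MOD 1 to 3, against 0.604, 0.827 and 0.648 in CON 1 to 3. Mcm3 was thus the more abundant transcript of this pair in each MOD library and the less abundant in each CON library. Mcm2 also held a smaller share in MOD (9.14 ± 1.14%) than in CON (12.8 ± 0.418%), while Mcm6 held 18.3 ± 1.38% in MOD and 17.8 ± 2.72% in CON. This pair was singled out after its values were seen, and no test is given.

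**Figure D2:**
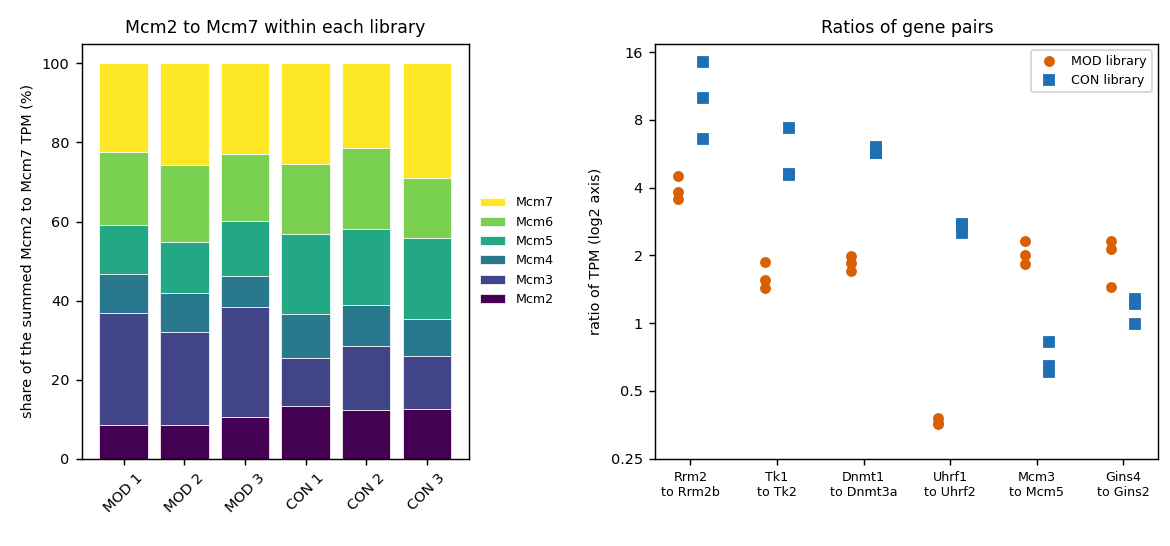
Left, the share of each of Mcm2 to Mcm7 in their summed TPM (%), stacked for each library; right, the ratio of TPM of 6 gene pairs in each MOD library (circles) and CON library (squares) on a log2 axis. Mcm3 takes 23.7 to 28.5% of the stack in MOD and 12.3 to 16% in CON, and the groups do not overlap for any of the 6 ratios.

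Some promoters of the replication genes carry a sequence feature that the choice of genes did not use. RefSeq promoters (GRCm38.p6, from 250 bases before to 50 bases after a gene's start) were at hand for 37 of the 44 genes, and 12 of them held at least 1 copy of the E2F motif TTTCCCGC or TTTGGCGC on either strand, which is 32.4%. The share was 3.14% of 11286 tested genes with a promoter and 1.80% of all 27025 genes in the table; the median GC content was 58.3% for the 44-gene list, 60.3% for tested genes and 52.7% for all. The 12 genes were Cdc6, Cdt1, Mcm3, Mcm5, Mcm6, Mcm7, Gins3, Pola1, Pole2, Pold1, Rfc3 and Dnmt1. The 3 stretches below were chosen as examples among the genes that fell and hold the motif before the start. Cdc6, Mcm7 and Gins3 are such genes too and are not shown. Each stretch ends at the base before the RefSeq start and is written 5′ to 3′ on the gene's strand, with the motif in capitals. They are Mcm5 at chr8:75109334-75109508 (plus strand), Mcm6 at chr1:128359706-128359880 (minus strand) and Pola1 at chrX:93632156-93632330 (minus strand).
Mcm5: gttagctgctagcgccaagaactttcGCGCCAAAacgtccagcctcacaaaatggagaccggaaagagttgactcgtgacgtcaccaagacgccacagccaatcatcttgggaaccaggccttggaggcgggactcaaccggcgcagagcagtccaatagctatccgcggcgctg
Mcm6: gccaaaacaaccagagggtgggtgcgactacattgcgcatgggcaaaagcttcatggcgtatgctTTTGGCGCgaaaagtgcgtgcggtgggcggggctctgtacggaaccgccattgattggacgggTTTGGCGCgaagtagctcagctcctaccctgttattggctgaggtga
Pola1: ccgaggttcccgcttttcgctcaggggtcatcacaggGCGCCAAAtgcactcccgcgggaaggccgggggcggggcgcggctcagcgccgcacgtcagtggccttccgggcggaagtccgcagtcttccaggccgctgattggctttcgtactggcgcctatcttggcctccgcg

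In Mcm6 the motif has 2 copies in the same orientation, beginning 110 and 47 bases before the start, and in Mcm5 and Pola1 it lies on the opposite strand, beginning 149 and 138 bases before the start. Holding the motif did not sort the genes by their difference: the median log2 difference was -1.21 over the 12 genes with a motif, among them Mcm3, which was not called, and -1.27 over the 25 with a promoter and no match. A match is a description of letters and not a binding site, and no match says only that these letters are not in the window. The share was 30.8% (4 of 13) for other E2F, pocket protein and DREAM complex genes, 30.8% (4 of 13) for replication stress and repair genes, 21.4% (6 of 28) for other replication factors and 0 of 24 for mitosis genes, all lists described further on, so the motif was not particular to the 44 genes.

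**Figure D3:**
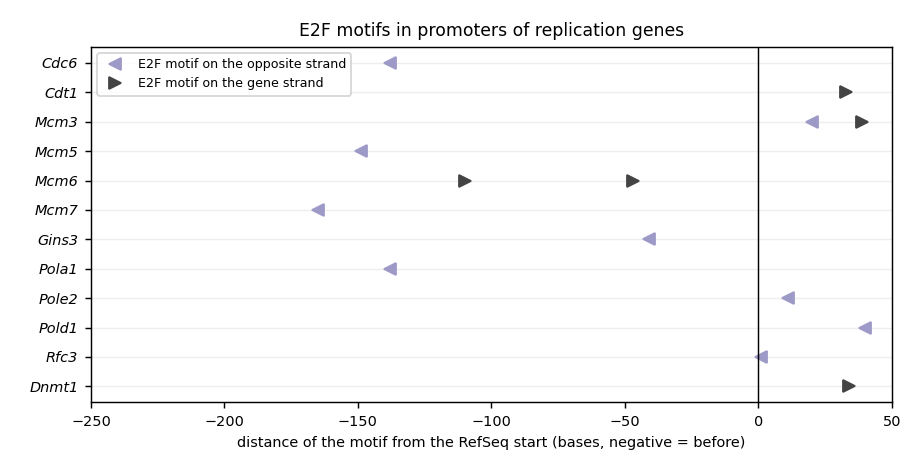
Position of each E2F motif in the 12 promoters that hold one, as the distance in bases of the motif's first base from the RefSeq start (negative is before it); arrows give the strand. Motifs of Mcm5, Mcm6, Mcm7, Cdc6, Gins3 and Pola1 lie before the start, from 165 to 41 bases, and the others at or after it.

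All 6 genes of helicase activation fell. Mcm10, which joins the helicase as it is switched on, was at 2.76, 4.18 and 4.13 TPM in MOD, against 11.37, 12.63 and 15.81 TPM in CON (log2 difference -1.61, SE 0.20, limma adjusted p = 0.0020). Cdc45, a fixed part of the active helicase, averaged 6.09 ± 1.59 TPM in MOD and 17.4 ± 3.77 TPM in CON (SD, n = 3 each; log2 difference -1.38). For Mcm10 the MOD libraries lay much closer to each other than to the lowest control. For Cdc45 they ranged from 4.32 to 7.40 TPM, against 13.14 TPM in CON 1, the lowest control. The 4 subunits of GINS, the third component of the active helicase, lay between -1.12 (Gins2) and -0.44 (Gins4). Gins4 was at 22.29, 23.28 and 20.60 TPM in MOD, against 26.77, 33.66 and 30.38 TPM in CON (SE 0.13, limma adjusted p = 0.034), which made it the called member with the smallest difference. Its call was lost under 9 of 16 alternatives: median-of-ratios scaling, where the difference was -0.09, quantile normalization, TPM without the 20 most abundant genes, the H2-Ea term (adjusted p = 0.0662), and leaving out any library but CON 1 (from 0.0601 without CON 3 to 0.0948 without CON 2). The ratio of Gins4 to Gins2, chosen after the values were seen, was 2.32, 2.13 and 1.44 in MOD and 1.27, 1.22 and 0.994 in CON. Gins3 (log2 difference -0.86) lost its call with the H2-Ea term (adjusted p = 0.0569).

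All 8 polymerase and primase genes fell, with differences between -1.33 and -0.91. Pola1, the catalytic subunit of DNA polymerase alpha, which begins each new strand, was at 2.21, 2.77 and 2.29 TPM in MOD, against 7.71, 9.81 and 5.71 TPM in CON (log2 difference -1.33, SE 0.21, limma adjusted p = 0.0039). Its partners in the same complex were Pola2 (-0.91), the primase catalytic subunit Prim1 (-1.26) and the primase large subunit Prim2 (-1.13). Pole2, the second subunit of the leading-strand polymerase epsilon, averaged 5.27 ± 0.272 TPM in MOD and 13.3 ± 0.813 TPM in CON (SD, n = 3 each; log2 difference -1.19, limma adjusted p = 0.0016), and was thus among the members with the least spread between libraries. Its catalytic partner Pole fell by 1.16, which was not called once the H2-Ea term was added (-1.30, adjusted p = 0.0536). Pold1, the catalytic subunit of the lagging-strand polymerase delta, was at 8.28, 9.46 and 13.94 TPM in MOD, against 14.07, 20.32 and 30.69 TPM in CON. The groups nearly touched, between MOD 3 and CON 1. Its call (log2 difference -0.94, SE 0.31, limma adjusted p = 0.042) was lost under 9 of 16 alternatives, among them leaving out MOD 1 (adjusted p = 0.130), MOD 2 (0.110), CON 2 (0.0806) or CON 3 (0.0897) and the H2-Ea term (0.18). Pold2, its accessory subunit, fell by 0.92, a call that ended without MOD 1 (adjusted p = 0.0526), under the H2-Ea term (0.0506, with a difference of -1.11) and after median-of-ratios (0.0663) or quantile (0.0755) scaling.

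The sliding clamp, its loader and the single-strand binding complex all fell, with a median of -0.91 over these 8 genes. Pcna, the clamp and the most abundant transcript of the 44, was at 82.28, 92.46 and 87.72 TPM in MOD, against 184.09, 231.32 and 207.55 TPM in CON (log2 difference -1.23, SE 0.13, limma adjusted p = 0.0014). The MOD libraries lay closer to each other than to the lowest control. Of the clamp loader subunits, Rfc4 fell by 1.24, Rfc5 by 0.94, Rfc3 by 0.88 and Rfc2 by 0.70. Of replication protein A, which coats single-stranded DNA, Rpa3 was at 20.12, 23.50 and 23.00 TPM in MOD, against 61.72, 55.88 and 61.54 TPM in CON (log2 difference -1.39, SE 0.12, limma adjusted p = 0.00096). Its partners were nearer to the controls: Rpa2 differed by -0.87 and Rpa1, at 36.39, 34.89 and 36.26 TPM in MOD and 49.50, 74.42 and 53.88 TPM in CON, by -0.69. Calls were lost without MOD 1 for Rfc2 (adjusted p = 0.0590), Rpa1 (0.0517) and Rpa2 (0.0518), without MOD 2 for Rpa1 (0.0526), and under the H2-Ea term for Rfc2 (0.126), Rfc5 (0.0687) and Rpa2 (0.0694). After median-of-ratios scaling Rfc2, Rpa1 and Rpa2 were not called (adjusted p = 0.133, 0.108 and 0.0655), and after quantile normalization Rfc5 was not either. Fen1, the nuclease that trims Okazaki fragments, fell to 9.04, 8.49 and 12.00 TPM in MOD, against 24.52, 28.71 and 31.70 TPM in CON (log2 difference -1.44, SE 0.17, limma adjusted p = 0.0019), and Lig1, the ligase that joins them, fell by 1.27, not called under the H2-Ea term (adjusted p = 0.0615).

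**Figure D4:**
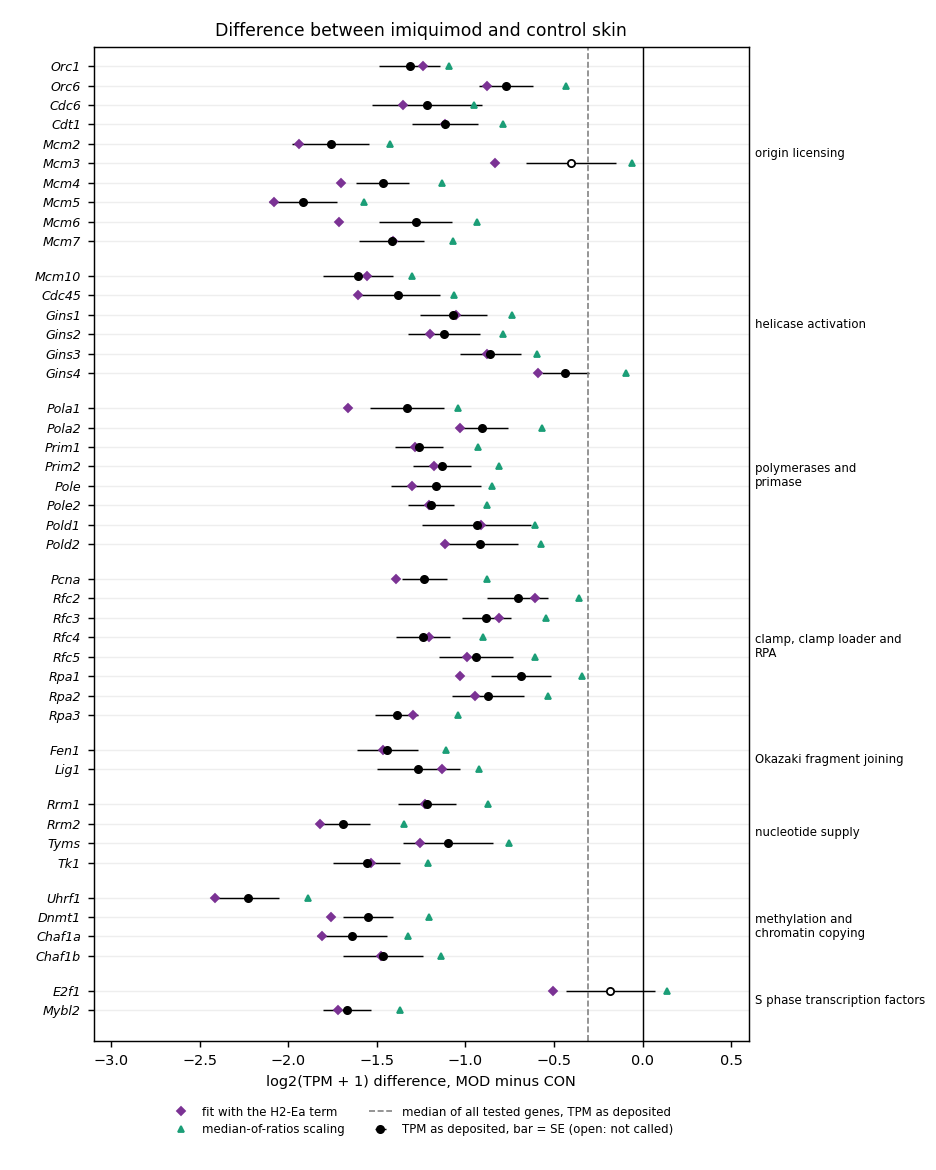
Log2(TPM + 1) difference, MOD minus CON, of each gene with its SE (black, open where not called), with the value under the H2-Ea term (diamonds) and after median-of-ratios scaling (triangles). Uhrf1 lies farthest to the left at -2.23, and Mcm3 and E2f1 are the open symbols; the dashed line at -0.31 is the median of all tested genes.

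All 4 enzymes of deoxynucleotide supply fell. Rrm2, the small subunit of ribonucleotide reductase that cells make in S phase, was at 14.38, 14.60 and 17.75 TPM in MOD, against 44.92, 57.28 and 55.35 TPM in CON (log2 difference -1.69, SE 0.15, limma adjusted p = 0.0010). The large subunit Rrm1 was at 25.89, 24.99 and 32.92 TPM in MOD, against 56.86, 66.24 and 75.80 TPM in CON (log2 difference -1.22). The highest MOD library was well below the lowest CON library for both subunits. Tk1, the cytosolic thymidine kinase of cycling cells, averaged 22.8 ± 3.34 TPM in MOD and 69.8 ± 14.9 TPM in CON (SD, n = 3 each; log2 difference -1.56, limma adjusted p = 0.0020). Tyms, thymidylate synthase, averaged 32.8 ± 7.99 TPM in MOD and 72.1 ± 19.3 TPM in CON (log2 difference -1.10, limma adjusted p = 0.013), and was not called when MOD 1 was left out (adjusted p = 0.0505) or the H2-Ea term added (0.0579, with a difference of -1.26).

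Enzymes that do the same chemistry outside S phase were not called in TPM as deposited with all libraries included. Rrm2b, the small reductase subunit of non-dividing cells, was at 4.06, 3.82 and 3.93 TPM in MOD, against 6.84, 5.70 and 3.82 TPM in CON (log2 difference -0.36, limma adjusted p = 0.19). CON 1 and CON 2 lay above every MOD library, and CON 3 did not. The absence of a call for Rrm2b depended on the setting, as its lowest limma adjusted p among the alternatives was 0.030. Tk2, the mitochondrial thymidine kinase, was at 13.54, 14.51 and 14.30 TPM in MOD, against 12.31, 14.70 and 11.63 TPM in CON (log2 difference 0.13, limma adjusted p = 0.47; 0.46 after median-of-ratios scaling, adjusted p = 0.021). The ratio of Rrm2 to Rrm2b was 3.96 ± 0.502 in MOD and 10.4 ± 3.97 in CON, and that of Tk1 to Tk2 was 1.62 ± 0.225 in MOD and 5.51 ± 1.61 in CON (SD, n = 3 each). No MOD library reached a CON library in either ratio. With 3 libraries against 3 an exact two-sided permutation test cannot go below p = 0.1, and it gave 0.1 for each of the 3 pairs tested, these and Dnmt1 to Dnmt3a (0.1 after adjustment over the 3). These 3 pairs were listed with earlier results of these data known, and any pair whose groups do not overlap gives 0.1. The test is thus not read as support.

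Of all 44 genes, those that copy chromatin marks had the median difference farthest from 0, at -1.59, and all 4 fell. Uhrf1, which binds hemimethylated DNA behind the fork and brings in the methyltransferase, was at 10.29, 10.46 and 14.02 TPM in MOD, against 48.76, 65.50 and 59.65 TPM in CON (log2 difference -2.23, SE 0.18, limma adjusted p = 0.00084). Dnmt1, the maintenance methyltransferase, was at 14.01, 13.62 and 15.14 TPM in MOD, against 38.47, 50.67 and 42.47 TPM in CON (log2 difference -1.55, SE 0.14, limma adjusted p = 0.0011). The spread within MOD was small beside the gap to CON for both. Chaf1a and Chaf1b, subunits of the CAF-1 complex that places histones on new DNA, fell by 1.64 and 1.47, Chaf1a to 5.10, 3.85 and 4.25 TPM in MOD, against 12.06, 17.85 and 18.09 TPM in CON.

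Relatives of these genes outside maintenance were not called in TPM as deposited. Dnmt3a, a de novo methyltransferase, was at 8.23, 7.35 and 7.60 TPM in MOD, against 6.75, 8.38 and 7.43 TPM in CON (log2 difference 0.04, SE 0.14, limma adjusted p = 0.84). Dnmt1 to Dnmt3a was 1.70, 1.85 and 1.99 in MOD 1 to 3, against 5.70, 6.05 and 5.72 in CON 1 to 3. Uhrf2, the paralog of Uhrf1, was at 28.86, 27.63 and 38.92 TPM in MOD, against 17.62, 24.19 and 23.81 TPM in CON (log2 difference 0.52, limma adjusted p = 0.060; 0.86 after median-of-ratios scaling, adjusted p = 0.010). Uhrf1 to Uhrf2, chosen after the values were seen, was 0.357, 0.379 and 0.360 in MOD and 2.77, 2.71 and 2.51 in CON, so Uhrf1 was the lower of the pair in each MOD library and the higher in each CON library.

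The 2 transcription factors on the list parted. Mybl2, B-Myb, itself an E2F target that acts later in the cycle, was at 2.90, 2.77 and 2.97 TPM in MOD, against 10.44, 11.80 and 11.80 TPM in CON (log2 difference -1.67, SE 0.14, limma adjusted p = 0.00093). E2f1 was at 7.04, 7.37 and 9.52 TPM in MOD, against 6.07, 11.67 and 10.52 TPM in CON. The lowest E2f1 value of all was CON 1, and the groups overlapped. Its log2 difference was -0.18 (SE 0.25, limma adjusted p = 0.58) and turned to 0.14 after median-of-ratios scaling and 0.15 after quantile normalization, with no call under any alternative. These are mRNA levels, and E2F activity was not measured.

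The libraries of a group also differed from each other. CON 1 was the lowest control for 42 of the 44 genes, CON 3 was the highest for 25 and CON 2 for 18. Within MOD, MOD 3 was the highest for 28 genes, MOD 2 for 13 and MOD 1 for 3. The same counts over all tested genes were not made, so these orders are not read as particular to the 44. Leaving out MOD 1 left 34 genes called, the fewest of any omission, and leaving out CON 1 left 42.

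Other genes of the same pathway, were taken from lists that do not include the 44. Of 34 further replication factors 26 fell and 0 rose, with a median of -0.97; after median-of-ratios scaling 23 were lower and 1 higher (Pold4, 0.44), with a median of -0.66. The largest falls were those of Clspn, claspin, a checkpoint mediator that travels with the fork (2.44 ± 0.330 TPM in MOD and 11.9 ± 1.57 TPM in CON, SD, n = 3 each; log2 difference -1.90), and of Mtbp, which takes part in origin firing (-1.68). Of 15 further deoxynucleotide and folate enzymes 10 fell and 1 rose, with a median of -0.86; after median-of-ratios scaling 8 were lower and 2 higher (Tk2 and Samhd1), with a median of -0.51, and under the H2-Ea term 7 were lower and 0 higher. Shmt1, which feeds one-carbon units into thymidylate synthesis, fell by 1.64, and Mthfd1l, a mitochondrial folate enzyme, by 1.56. The 1 gene that rose was Samhd1, which breaks deoxynucleotides down, at 52.71, 68.25 and 52.96 TPM in MOD, against 21.99, 34.21 and 17.92 TPM in CON (log2 difference 1.24, SE 0.25, limma adjusted p = 0.0077). Each MOD library lay above each CON library, but under the H2-Ea term it was not called (0.73, adjusted p = 0.067). The rise ran beside that of the macrophage markers, and their part in it was not tested.

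Of 20 enzymes of de novo purine and pyrimidine synthesis 16 fell and 0 rose, with a median of -0.87. After median-of-ratios scaling 11 were lower and 1 higher (Ctps2, 0.99, limma adjusted p = 0.020), with a median of -0.55, and under the H2-Ea term 12 were lower. Ctps, a CTP synthase, stood at 12.55, 12.37 and 14.72 TPM in MOD, against 128.56, 65.42 and 38.11 TPM in CON (log2 difference -2.29, SE 0.40, limma adjusted p = 0.0052), and Cad, which carries out the first steps of pyrimidine synthesis, fell by 1.82. The controls of Ctps spread widely, with CON 1 the highest. Of 19 other E2F, pocket protein and DREAM complex genes and their relatives 14 fell and 0 rose (median -0.74). Myb, a relative of Mybl2, fell by 2.36, and E2f8, an atypical E2F that represses, by 1.82. After median-of-ratios scaling 9 of the 19 were lower and 2 higher (E2f6, 0.63, and Rbl2, 0.43), with a median of -0.42, and under the H2-Ea term 10 were lower. Of 11 other chromatin copying genes 8 fell and 0 rose (median -0.94), Hells, a chromatin remodeller, by 1.62 and the histone acetyltransferase gene Hat1 by 1.42. After median-of-ratios scaling 8 were lower and 1 higher (Uhrf2), with a median of -0.59.

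Of the mitosis genes all 28 fell, 27 of them also under the H2-Ea term, and the median was -1.50. Mki67, which encodes the proliferation antigen Ki-67, was at 13.21, 11.78 and 9.60 TPM in MOD, against 46.80, 61.67 and 37.01 TPM in CON (log2 difference -1.96, SE 0.21, limma adjusted p = 0.0016). Kif11, a spindle motor, fell by 1.79 and Top2a, topoisomerase II alpha, by 1.69. The summed TPM of the 44 replication genes was 1.45, 1.58 and 1.58 times that of the mitosis list in MOD 1 to 3, against 1.28, 1.28 and 1.33 times in CON 1 to 3. The ratio was higher in each MOD library than in each CON library; whether the lists differ was not tested.

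**Figure D5:**
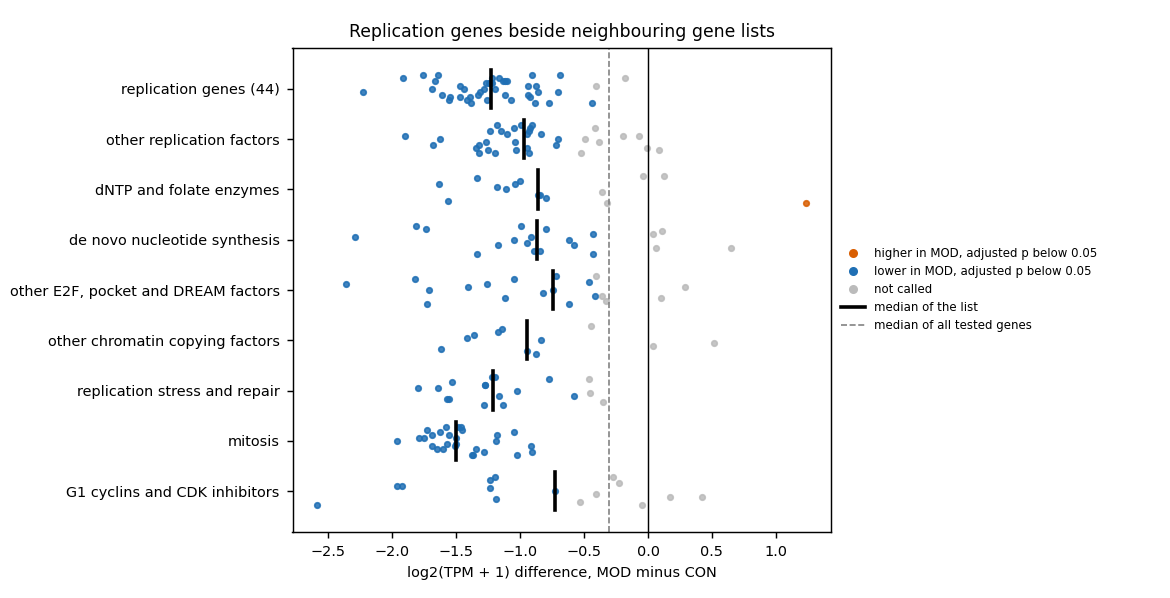
Log2(TPM + 1) difference, MOD minus CON, of each tested gene of the 44 and of 8 neighbouring lists, coloured by call, with the list median as a bar. The medians run from -1.50 for mitosis to -0.72 for G1 cyclins and CDK inhibitors, with -1.23 for the 44 genes, all to the left of the median of all tested genes at -0.31.

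Some values are less certain because of neighbouring genes. In the GENCODE M21 annotation, used only for which genes overlap, exons of 13 of the 44 genes overlap a gene on the opposite strand, such as Mcm7 with Ap4m1 and Cops6, Tk1 with Afmid, and Fen1 with Tmem258, and Pole2 shares exons with a protein-coding gene on its own strand. Strand use in the counting is not given in the sources used here, so reads of such pairs may not be told apart.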

How the data were processed

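RNA from mouse skin was extracted with TRIzol, treated with DNase I and made into libraries with a SMARTER mRNA-Seq kit, per the labels' protocols. Per the submitters' processing notes, reads were handled on GRCm39; no aligner, annotation or quantifier is given in the sources used here. The authors deposited TPM values per gene for 6 libraries. TPM keeps no depth, so sequencing depth is unknown and no counting interval is given; 23311 to 24647 genes were above 0 in a library. Columns were matched to samples by the labels' descriptions, and libraries are numbered by the titles, so that the columns named CON3 and CON4 are CON 2 and CON 3. Any pair of libraries shared identical values in 0.0653 to 1.02% of the tested genes. Whether each library is a separate animal is not stated, so the p-values reflect only the spread among these libraries, which may be technical.

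Genes reaching 1 TPM in 3 or more libraries (15323) were compared between MOD and CON on log2(TPM + 1) with limma 3.58.1 in R 4.3.3 (eBayes with trend), adjusted over all of them at a threshold of 0.05. All 44 genes and, of each other list, the 2 largest falls and 2 largest rises among the called genes are named, with Rrm2b, Tk2, Dnmt3a, Mki67 and Top2a; Uhrf2 was added after its values were seen. A gene that this rule selects is not reported here. The members and lists were chosen with earlier results of these data known. The procedure was checked on simulated data. The 16 alternatives were 2 pseudocounts (0.5 and 0.1), 2 filters, 3 scalings, no trend, a replicate block, the H2-Ea term and leaving out each library.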

Additional observations from a re-analysis of the deposited data

How the results depend on the processing

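All 44 genes had a negative difference under 14 of the 16 alternatives (41 of 41 where a mean of 5 TPM was required); after median-of-ratios scaling and quantile normalization 43 of 44 did, and E2f1 was at 0.14 and 0.15. The number called lower was 42, and 31 to 42 under the alternatives (36 and 35 after those scalings, 31 with the H2-Ea term); it was 34 to 42 with 1 library left out. The median of the 44 was -0.89 after median-of-ratios scaling and -0.92 after quantile normalization, and -1.33 to -1.13 with 1 library left out. Over all genes, the number higher was 3097 after median-of-ratios scaling and 667 with the H2-Ea term; the number lower was 2868, 3177 after quantile normalization and 2747 with the H2-Ea term, and 3559 (without MOD 1) to 5487 (without CON 3) with 1 library left out. The median of all genes was 0.0034 after median-of-ratios scaling, -0.042 after quantile normalization, -0.18 without the 20 most abundant genes and -0.047 without the filter. The cause of these shifts was not tested. With a replicate block 42 of the 44 were called lower (median -1.23); deviations of same-numbered libraries correlated at 0.0046 to 0.069, so the numbers are not read as pairs. Depth is unknown and limits the low genes Orc1, Cdc6 and Gins3 most.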

Other observations

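Genes of the replication stress response and of repair at broken forks stood beside the replication genes. Of 18 tested, 15 fell and 0 rose, with a median log2 difference of -1.21. Blm, a helicase that acts at stalled forks, was at 1.79, 1.91 and 2.04 TPM in MOD, against 7.40, 8.27 and 8.67 TPM in CON (log2 difference -1.64, SE 0.14, limma adjusted p = 0.00098). Its MOD libraries lay close together and well below each control.

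Genes that govern entry into S phase were also followed. Of 15 G1 cyclins, their kinases and CDK inhibitors 8 fell and 0 rose, with a median of -0.72; after median-of-ratios scaling 7 were lower and 1 higher (Ccnd3, 0.77), with a median of -0.43. Ccnd1, cyclin D1, was at 10.20, 10.93 and 21.69 TPM in MOD, against 86.75, 97.59 and 75.30 TPM in CON (log2 difference -2.59, SE 0.28, limma adjusted p = 0.0015). The inhibitor Cdkn2b, p15, fell as well, by 1.96, so a cyclin and an inhibitor of its kinase were both lower in MOD. Cdkn2b was the only CDK inhibitor of the list that was called, so the list shows no shared fall of inhibitors.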
